A study of Mus musculus with 234 samples.

Results

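Cytochrome c oxidase, complex IV of the respiratory chain, contains subunits that mammals encode by more than 1 nuclear gene, and 9 of these genes are described here in single mouse cardiomyocytes (CMs). They are the muscle isoforms *Cox6a2*, *Cox7a1* and *Cox8b*, their ubiquitous counterparts *Cox6a1*, *Cox7a2* and *Cox8a*, the subunit 4 genes *Cox4i1* and *Cox4i2*, and *Cox7a2l*. The members were taken by name from the 55538 features of the deposited count table, and each name had 1 row. They were picked with the values of bright against control CMs known, so that comparison is given for them as a description without a test.

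Complex IV lies in the inner mitochondrial membrane, passes electrons from cytochrome c to oxygen and pumps protons. Its catalytic core is encoded by mitochondrial DNA, and the small nuclear-encoded subunits around the core affect its assembly, stability and regulation. Subunits 6a, 7a and 8 exist in rodents as a form of heart and skeletal muscle and a form found in most tissues, and in the heart the muscle forms gain on the ubiquitous forms as the animal matures after birth.

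The study compared CMs that express a mutant human BAG3, a co-chaperone of the Z-disc, with CMs of control mice. Hearts were digested by Langendorff perfusion, single CMs were picked by hand, and their RNA was sequenced by SMART-seq2, a method that covers whole transcripts. The animals are named as in the labels. Mouse_25 and Mouse_116 carried the strain label PGKcre:BAG3P209L_homo and Mouse_72 the label PGKcre:BAG3P209L_het. In this line, derived from 1 embryonic stem cell clone, PGK-Cre removes a stop from a CAG-driven construct of human BAG3 with the P209L change fused to eGFP, in the whole animal. Control Mouse_26 and Mouse_73 were labelled C57BL/6, while the study describes its controls as siblings that were wild type or carried only 1 of the 2 transgenes. The CMs of the transgenic hearts were labelled bright or dim by their eGFP fluorescence. The control and homozygous mice were 2 weeks old, and the age of Mouse_72 was not stated in the sources used here. In all, 234 cells came from 5 mice: 24 and 9 control CMs of Mouse_26 and Mouse_73, 21 and 59 bright and 18 and 50 dim CMs of Mouse_25 and Mouse_116, and 27 bright and 26 dim CMs of Mouse_72. The mouse is the replicate, with 2 mice a group in the homozygous and control groups and 1 heterozygous mouse.

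Cells held 487 to 1392253 counts with a median of 711527, and the sums over the cells of 1 mouse and class ran from 4096609 counts (control Mouse_73) to 40508124. In CPM, the counts of a sum scaled to the usual common total, the human BAG3 feature hBAG stood at 0.408 and 0.488 in the control sums and at 294 and 233 in the bright sums of Mouse_25 and Mouse_116, against 10.7 and 99.6 in their dim sums. In Mouse_72 it went against the labels, with 105 CPM in the cells labelled het_bright and 251 CPM in those labelled het_dim. All 8 CM markers were detected in each sum. Their summed level was 86722 and 93440.0 CPM in the control sums, 83166 and 75336 in the dim sums and 77394 and 75613 in the bright sums, so it was lower in the homozygous groups, and its part in the results was not tested. Of the other cell types, 5 fibroblast genes summed to 13.8 to 284 CPM outside the bright sum of Mouse_25 and 7 pericyte and smooth muscle genes to 506 to 1889.7 CPM. The 5 endothelial genes summed to 219 and 269 CPM in control, 399.9 and 276 in dim and 138 and 134 in bright sums. The 5 immune genes summed to 1.69 and 2.93 CPM in control, 48.4 and 43.0 in dim and 0.0529 and 1.97 in bright sums. Endothelial genes were thus lowest in bright and immune genes highest in dim CMs, and their part in the results was not tested. Of the pericyte and smooth muscle genes *Myh11* was at 0 in 7 of 8 sums and the other 6, *Acta2* among them, in none. Of the immune genes *Ptprc* and *Adgre1* were each at 0 in 6 sums, *C1qa* in 3, *Lyz2* in 2 and *Cd68* in none. In 1 well of bright Mouse_25 the fibroblast genes reached 33334 CPM and the CM markers only 573 CPM, so this well goes against its label as a CM. It is part of the bright sum of Mouse_25, whose fibroblast genes summed to 1661 CPM with it and 172 without it, and whose CM markers summed to 81006 CPM without it. The values of Mouse_25 below include the well unless they are said to leave it out.

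The promoters of the subunit 7a and 8 pairs, whose shares are set side by side below, are printed as 250 bases that end just before the start in the promoter table, in the direction of the gene, from RefSeq on GRCm38.p6. Of the 9 members, 6 matched an entry. The muscle genes are shown first and the ubiquitous partners of the same subunits after them. Capitals mark matches to CAGCTG (an E-box), CCGGAAG (bound by ETS factors such as GABPA), GCATGCGC (NRF1), GGGCGG (GC box) or CCAAT, read on both strands. A TATA box (letters TATAAA, in 12.4% of all windows), a half-site of estrogen-related receptors (letters AAGGTCA, 4.08%) and the MEF2 consensus (2.92%) were also searched and had no match in the 6 windows. *Cox7a1* lies at chr7:30183921-30184170 on the plus strand, *Cox8b* at chr7:140900447-140900696, *Cox7a2* at chr9:79759854-79760103 and *Cox8a* at chr19:7217617-7217866, these on the minus strand. The RefSeq gene *Cox7a2* spans chr9:79755241-79771422, so its printed window lies within the gene, before the start of a shorter transcript.
Cox7a1: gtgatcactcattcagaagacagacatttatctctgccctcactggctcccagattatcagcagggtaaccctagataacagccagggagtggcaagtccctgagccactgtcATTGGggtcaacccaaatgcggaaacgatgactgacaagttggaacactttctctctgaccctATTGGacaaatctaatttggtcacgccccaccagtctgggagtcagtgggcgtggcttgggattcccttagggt
Cox8b: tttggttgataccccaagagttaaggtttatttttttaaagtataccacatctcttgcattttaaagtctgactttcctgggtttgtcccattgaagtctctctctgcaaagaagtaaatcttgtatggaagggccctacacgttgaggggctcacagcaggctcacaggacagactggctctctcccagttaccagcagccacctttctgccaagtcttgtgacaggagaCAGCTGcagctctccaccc
Cox7a2: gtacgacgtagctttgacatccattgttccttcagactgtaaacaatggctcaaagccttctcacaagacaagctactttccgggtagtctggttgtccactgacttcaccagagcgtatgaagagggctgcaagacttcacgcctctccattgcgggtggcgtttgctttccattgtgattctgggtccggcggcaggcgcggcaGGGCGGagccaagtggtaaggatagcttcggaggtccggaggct
Cox8a: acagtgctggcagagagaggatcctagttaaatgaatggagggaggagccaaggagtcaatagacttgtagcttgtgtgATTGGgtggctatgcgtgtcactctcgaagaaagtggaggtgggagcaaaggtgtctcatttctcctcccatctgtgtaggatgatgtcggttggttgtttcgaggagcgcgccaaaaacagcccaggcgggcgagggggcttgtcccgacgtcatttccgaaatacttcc

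In these windows the muscle genes held few CpG dinucleotides, 4 in *Cox7a1* and 1 in *Cox8b*, against 14 in *Cox7a2*, 11 in *Cox8a*, 26 in *Cox6a1* and 13 in *Cox7a2l*. The median over 32851 windows of this length was 6.00. *Cox8b* held 1 E-box that starts 19 bases before the gene, a sequence found in 4271 of all windows. *Cox7a1* held 2 CCAAT matches, at 137 and 74 bases before the start (33.8% of all windows have at least 1). *Cox6a1*, whose window is not printed, was the member with matches to the ETS sequence (6.91% of all windows) and to NRF1 (2.26%), the latter as 2 overlapping matches. The GC box, held by 32.7% of all windows, occurred in *Cox6a1*, *Cox7a2* and *Cox7a2l*. A match describes letters, not a bound site. The RefSeq gene table of the same build places all 3 muscle isoform genes on chromosome 7 (*Cox7a1* at chr7:30184171-30186030, *Cox6a2* at chr7:128205435-128206366, *Cox8b* at chr7:140898942-140900446), while their partners lie on chromosomes 5, 9 and 19.

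Control CMs expressed the muscle isoforms above the ubiquitous ones. Per kilobase of the first-listed GENCODE M21 transcript, *Cox7a1* had the highest level of the 9 members (5175 ± 950.3 normalised CPM per kb, SD, n = 2 mice), followed by *Cox4i1* (4989 ± 1101), the subunit 4 form of most tissues. *Cox6a2* (4455 ± 932) and *Cox8b* (3554 ± 51.2) came next. The ubiquitous forms *Cox7a2* (1694 ± 286), *Cox8a* (848 ± 345) and *Cox6a1* (620.2 ± 111) followed, then *Cox7a2l* (316 ± 21.2), a factor in the assembly of respiratory supercomplexes. Both control mice gave this order. Neighbours among the first 4 genes differed by less than the larger of their SDs, as did *Cox8a* and *Cox6a1*.

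In bright homozygous CMs the order was another one, again shared by both mice. *Cox4i1* came first (3734 ± 338 normalised CPM per kb), then *Cox6a2* (3028 ± 1203), and *Cox7a1* (2237 ± 416) followed ahead of *Cox8b* (1864 ± 432) and *Cox7a2* (1450.3 ± 320.1). The places of *Cox8a* (928 ± 29.8), *Cox6a1* (572 ± 149) and *Cox7a2l* (251 ± 3.64) were as in control CMs. The values of the 2 mice overlapped between each of the first 5 genes and the next among them.

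*Cox4i2*, the subunit 4 form known from lung and from low oxygen, had few counts. It had 45 counts in control Mouse_26 and 0 in control Mouse_73, 60 and 36 in the dim sums of Mouse_25 and Mouse_116, and 55 and 93 in their bright sums. Its share of *Cox4i1* and *Cox4i2* counts reached at most 0.0944%, and the 0 of 10818 counts in Mouse_73 allows a share of up to 0.0277% at a floor of 3 counts (0.0341% as the upper Clopper-Pearson bound). Both bright sums (0.0936% and 0.0792%) lay above both control sums (0.0584% and 0), while the dim sums (0.0944% and 0.0355%) overlapped with control. These counts came from at most 3 usable cells of any mouse and class.

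The balance between paired isoforms was measured as the share of counts from the muscle isoform, which does not depend on how libraries are scaled. It is a share of reads and not of molecules, because the transcripts differ in length. The 3 muscle isoforms held 75.9% and 77.6% of the counts of all 6 paired isoforms in control Mouse_26 and Mouse_73. In the dim CMs of Mouse_25 and Mouse_116 they held 70.8% and 67.5%, and in the bright CMs 68.7% and 64.1%. All 4 homozygous sums lay below both control sums, and in each homozygous mouse the bright sum lay below the dim one. Without the fibroblast-type well the bright CMs of Mouse_25 held 68.8%, and their *Cox7a1* share of its pair was 47.6%. The exact Clopper-Pearson intervals of these shares, which cover counting error only, spanned 77.0% to 78.1% for the shallowest sum and less for the others.

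**Figure D1:**
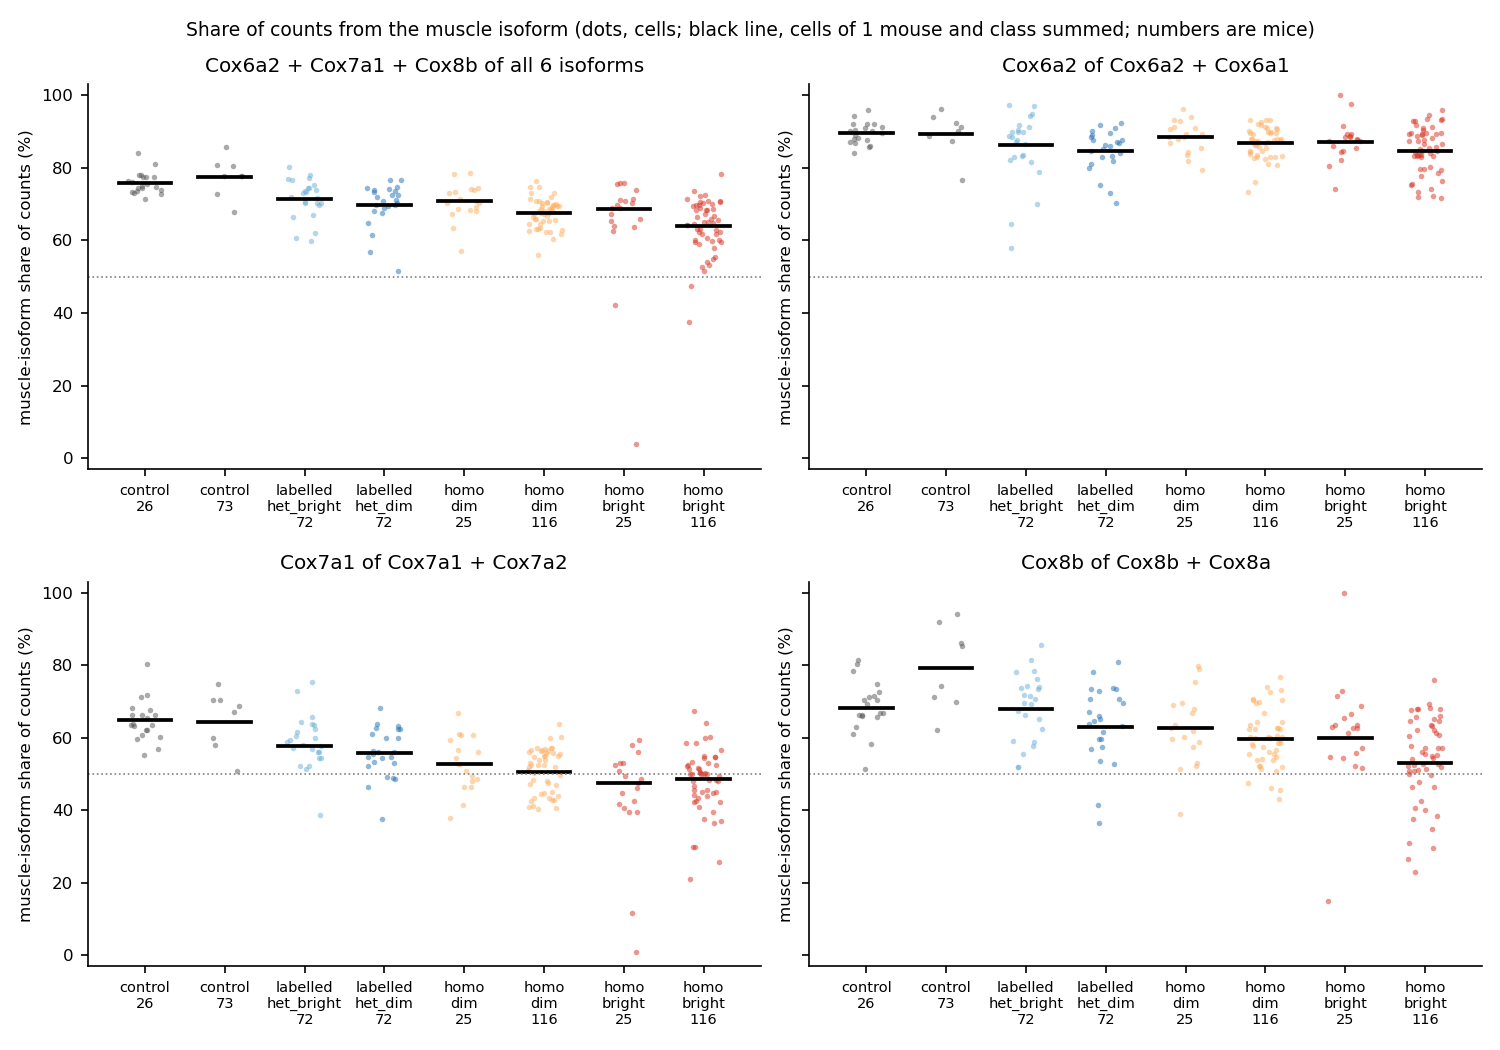
Share of counts (%) from the muscle isoform, for all 6 isoforms and for each pair, in 8 combinations of mouse and class. Dots are single cells (214 cells with at least 1000 detected genes and 100 isoform counts), black lines are the summed cells of 1 mouse and class, and the dotted line is 50%. The Cox7a1 share runs from 64.8% and 64.3% in the control sums to 47.4% and 48.6% in the bright sums, while the Cox6a2 share stays between 84.7% and 89.7% in all sums. The well with 3.91% and 0.806% is the fibroblast-type well of bright Mouse_25, and its highest values for the other pairs rest on few counts.

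The subunit 7a pair differed most evenly between the groups. *Cox7a1* held 64.8% and 64.3% of the *Cox7a1* and *Cox7a2* counts in control Mouse_26 and Mouse_73, 52.8% and 50.6% in the dim CMs of Mouse_25 and Mouse_116, and 47.4% and 48.6% in the bright CMs. The groups did not overlap, and the SD between mice was at most 1.56 points. The muscle isoform held most of this pair's counts in both control sums and less than the ubiquitous one in both bright sums. Per kilobase the shares were 75.5% and 75.1% in control sums and 60.1% and 61.3% in bright sums, so on that scale the muscle form stayed the more abundant one.

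For subunit 8, *Cox8b* held 68.3% and 79.2% of the pair's counts in control Mouse_26 and Mouse_73, 62.6% and 59.6% in the dim CMs of Mouse_25 and Mouse_116 and 59.9% and 52.9% in the bright CMs. Both homozygous groups lay below both controls, but the control mice differed more from each other (SD 7.73 points) than for the other pairs. For subunit 6a, *Cox6a2* held 89.7% and 89.3% in control sums, 88.5% and 86.9% in dim sums and 87.2% and 84.8% in bright sums. This pair showed the smallest distance between groups, and the muscle form held at least 84.7% of the counts in every one of the 8 sums.

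The muscle share of all 6 isoforms was 66.4% ± 3.24 in bright and 76.7% ± 1.20 in control CMs (SD, n = 2 mice each), 10.3 points lower. By pair, the bright value lay 3.52 points lower for *Cox6a2*, 16.5 points for *Cox7a1* and 17.3 points for *Cox8b*. The labels give plate names, and batch here means a shared start of that name. GL-9122b was 1 plate with Mouse_25 and Mouse_26. Under the name GL9989, Mouse_73 and Mouse_72 were on 1 plate and Mouse_116 on 2 others, so Mouse_116 and Mouse_73 shared no plate. Within these batches the muscle share of bright CMs was 7.20 points (Mouse_25 and Mouse_26) and 13.5 points (Mouse_116 and Mouse_73) lower, and the *Cox7a1* share 17.4 and 15.7 points lower. The *Cox8b* share was 8.34 and 26.3 points lower, so its size differed between the batches.

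Dim CMs had a muscle share of 69.1% ± 2.34, 7.59 points below control (two-sided exact permutation p = 0.33, the smallest that 2 against 2 mice can give). The differences by pair were 1.79 points for *Cox6a2*, 12.8 for *Cox7a1* and 12.7 for *Cox8b*, each with p = 0.33 by the same exact test. Within the batches the dim *Cox8b* share was 5.70 points (Mouse_25 and Mouse_26) and 19.6 points (Mouse_116 and Mouse_73) lower. The bright and dim comparisons use the same control mice and are not independent of each other. Between bright and dim CMs of the same hearts, the muscle share was 2.11 points lower in bright CMs of Mouse_25 and 3.38 points lower in those of Mouse_116 (mean 2.75, exact permutation p = 0.67). Paired within mice, the exact p was 0.50, the smallest that 2 pairs allow. The *Cox7a1* share was 5.46 and 1.99 points lower in bright CMs, with p = 0.33 by the unpaired exact test.

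The levels behind these shares are given in normalised CPM, which are CPM of the summed cells with library sizes corrected by TMM factors. *Cox7a1* stood at 2298 and 1769.8 in control Mouse_26 and Mouse_73, at 1257 and 744 in the dim CMs of Mouse_25 and Mouse_116 and at 995 and 764 in their bright CMs. *Cox8b* stood at 1292 and 1266 in control, 886 and 581 in dim and 781 and 561 in bright CMs. For both genes every homozygous sum lay below both control sums. *Cox6a2* had 3477 and 2581 in control, 2712 and 1449 in dim and 2638 and 1481 in bright CMs, and the groups overlapped, with Mouse_25 within the control range. Without the fibroblast-type well the bright CMs of Mouse_25 had 1056 for *Cox7a1*, 829 for *Cox8b* and 2800.0 for *Cox6a2*.

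**Figure D2:**
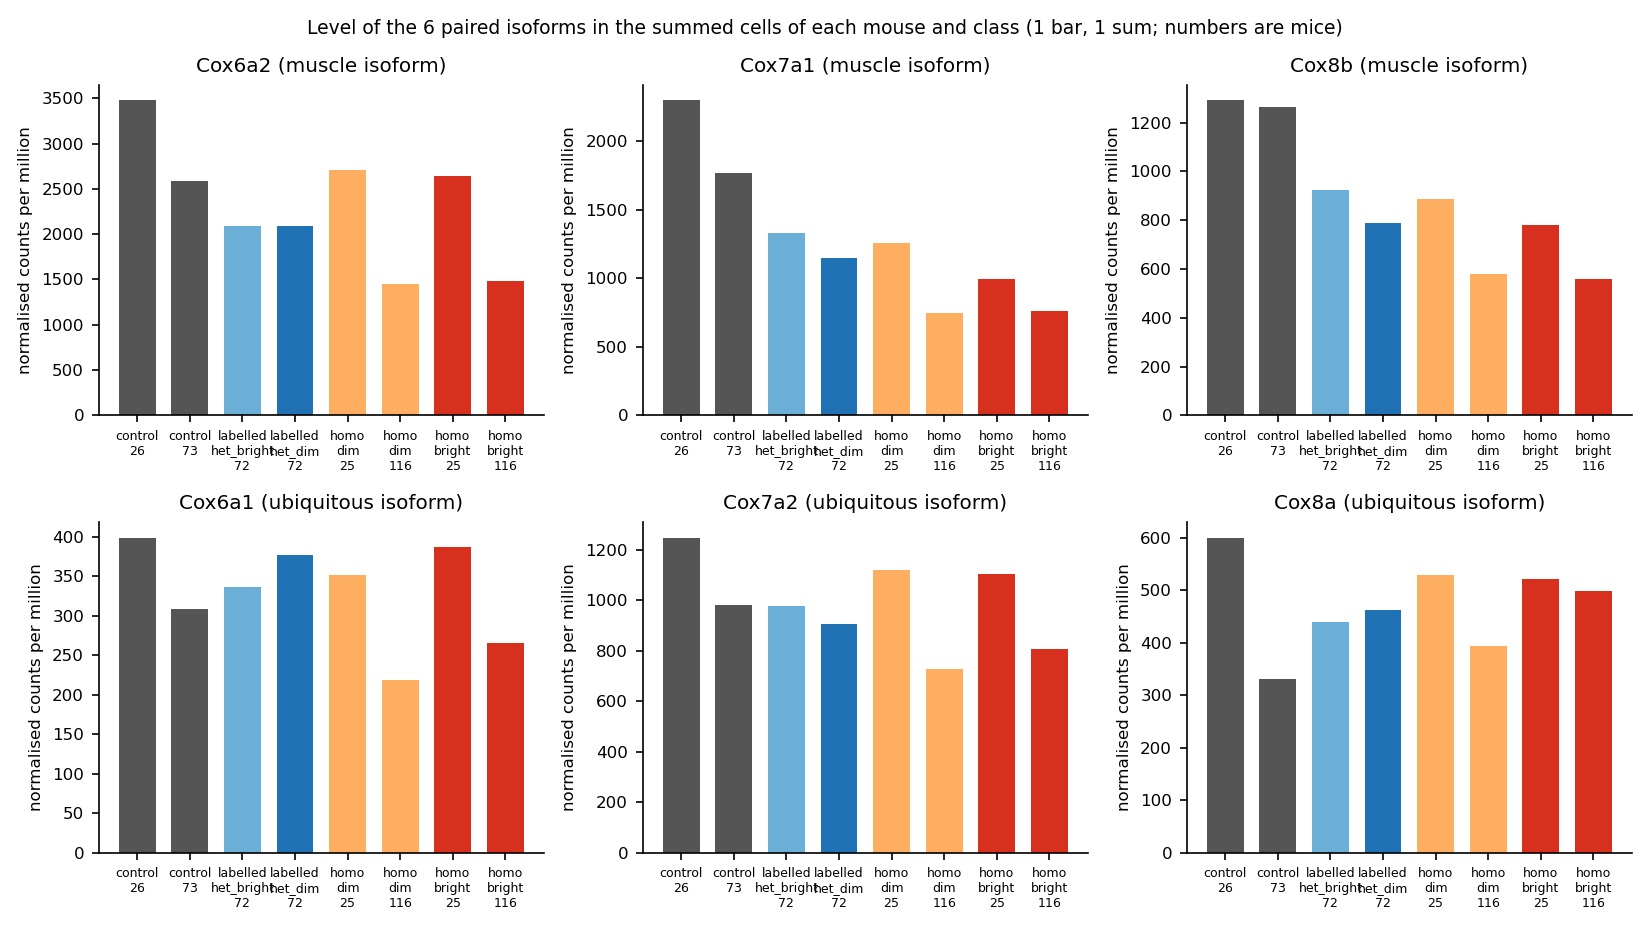
Normalised CPM (linear axis from 0) of the 6 paired isoforms in the summed cells of each mouse and class (1 bar is 1 sum, coloured by group; there are no error bars because a bar is a single sum). Cox7a1 is at 2298 and 1769.8 in the control sums and at 995 and 764 in the bright sums, and Cox7a2 at 1249 and 983 against 1105 and 807.

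The ubiquitous partners showed no such separation. *Cox7a2* had 1249 and 983 normalised CPM in control, 1122 and 726 in dim and 1105 and 807 in bright CMs. *Cox8a* had 601 and 332, 529.8 and 394, and 522 and 499 in the same order, and *Cox6a1* 399 and 309, 352 and 218, and 387 and 266. The groups overlapped for all 3 genes. In both homozygous classes Mouse_25 was higher than Mouse_116 for each of the 6 isoforms.

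*Cox4i1* had 4297 and 3137 normalised CPM in control, 3337 and 2694 in dim and 2959.6 and 2604 in bright CMs, with bright but not dim sums below both control sums. *Cox7a2l* had 324 and 357 in control, 233 and 232 in dim and 273 and 268 in bright CMs. Its dim sums were the lowest and its bright sums lay between dim and control, without overlap among the 3 groups. Of the 1027 windows of 50 bases in its transcript, 19.8% also occur in a pseudogene, Gm6969, so its counts are less certain than those of the paired isoforms. The pseudogene row held 177 counts against 44402. For *Cox6a2*, 3.33% of windows lie in the gene *Itgad* on the opposite strand, with 158 counts in all, and for *Cox4i1* 12.2% lie in *Emc8* on the opposite strand, with 3576 counts against 508001. For *Cox6a1*, 12.3% occur in AC148174.2, which held 40 counts. Whether counting used the strand was not stated in the sources used here.

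In the edgeR quasi-likelihood fit of bright against control CMs, the log2 fold changes of the muscle isoforms were -1.23 ± 0.29 for *Cox7a1*, -0.95 ± 0.29 for *Cox8b* and -0.58 ± 0.36 for *Cox6a2* (± standard error, 2 mice against 2). For *Cox7a1* this is 0.426 of the control level. The ubiquitous isoforms had -0.24 ± 0.29 (*Cox7a2*), -0.14 ± 0.32 (*Cox6a1*) and 0.12 ± 0.34 (*Cox8a*). The 3 ubiquitous isoforms lay within 1 standard error of 0. The median of all genes was 0.11, and against it *Cox7a2* lay lower by more than its standard error. Scaling by library size in place of TMM moved the median of all genes to 0.41, and *Cox6a1* and *Cox7a2* then stood at 0.17 and 0.06. The muscle isoforms stayed below 0 under it, at -0.92 for *Cox7a1*, -0.64 for *Cox8b* and -0.28 for *Cox6a2*.

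Of 12203 genes tested in this fit, 2 had an adjusted p under 0.05 (0.0164%), and both were transgene features. DESeq2 called 92 genes. The unadjusted p was under 0.05 for 799 genes. By the order of the sums, 1747 genes (14.3%) were lower in both bright than in both control sums. The members with that order were *Cox7a1*, *Cox8b*, *Cox4i1* and *Cox7a2l*, a count that the choice of the members fixed in part. Leaving out 1 mouse moved *Cox7a1* between -1.05 and -1.39 and *Cox8b* between -0.74 and -1.17. *Cox6a2* depended more on single mice, with -0.22 without bright Mouse_116 and -1.01 without bright Mouse_25. Without the fibroblast-type well the values were -1.17, -0.89 and -0.51 for *Cox7a1*, *Cox8b* and *Cox6a2*.

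In dim against control CMs the muscle isoforms again had values below 0. The log2 fold changes were -1.04 ± 0.36 for *Cox7a1*, -0.82 ± 0.33 for *Cox8b* and -0.56 ± 0.39 for *Cox6a2*. Their adjusted p was 0.735, 0.760 and 0.980 by edgeR's quasi-likelihood test. Within the batches the log2 difference of *Cox6a2* was -0.36 (Mouse_25 and Mouse_26) and -0.83 (Mouse_116 and Mouse_73), so its size differed between them. None of the 12195 genes tested passed the threshold (0%), the transgene feature hBAG (adjusted p = 0.735 by edgeR) included. Before adjustment 759 of them were under 0.05, and 53 were called by DESeq2, no member among them. The members lower in both dim than in both control sums were *Cox7a1*, *Cox8b* and *Cox7a2l*, against 13.7% of all genes with that order. The ubiquitous isoforms ranged from -0.33 to -0.03.

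Between bright and dim CMs no gene of 13439 was called (0%). Before adjustment 554 genes were under 0.05, and by DESeq2 91 were called, again without a member. The 3 muscle isoforms had log2 fold changes between -0.19 and -0.02 and the 3 ubiquitous isoforms between 0.04 and 0.19, all smaller than their standard errors. *Cox7a2l* was the member that was higher in both bright than in both dim sums (0.21 ± 0.19, adjusted p = 0.999 by edgeR), an order shared by 15.3% of all genes.

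The other nuclear-encoded subunits of complex IV, which have no muscle form, mostly had values below 0 too. Of the 10 genes listed, 8 were tested, none was called, all 8 had a log2 fold change below 0 in bright against control CMs and the median was -0.48, against 45.9% of all genes below 0. Scaled by library size, 7 of the 8 stayed below 0 with a median of -0.17, when the median of all genes was 0.41. With equal weight for each cell, 6 of the 8 stayed below 0 with a median of -0.14, against 0.49 for all genes. *Cox6b1*, which joins the monomers of the dimeric enzyme, had 3216 and 2359 normalised CPM in control and 2329.8 and 1717 in bright sums. *Cox7c* had the lowest value (-0.58 ± 0.30) and *Cox5a* the highest (-0.13 ± 0.45). The sign of *Cox5a* differed between the batches, with log2 differences of -0.34 (Mouse_25 and Mouse_26) and 0.29 (Mouse_116 and Mouse_73). In dim against control CMs, 7 of 8 lay below 0 with a median of -0.40. The testis form *Cox6b2* was the exception at 1.85 ± 1.38, with levels between 0.554 and 11.6 normalised CPM over the control and homozygous sums.

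**Figure D3:**
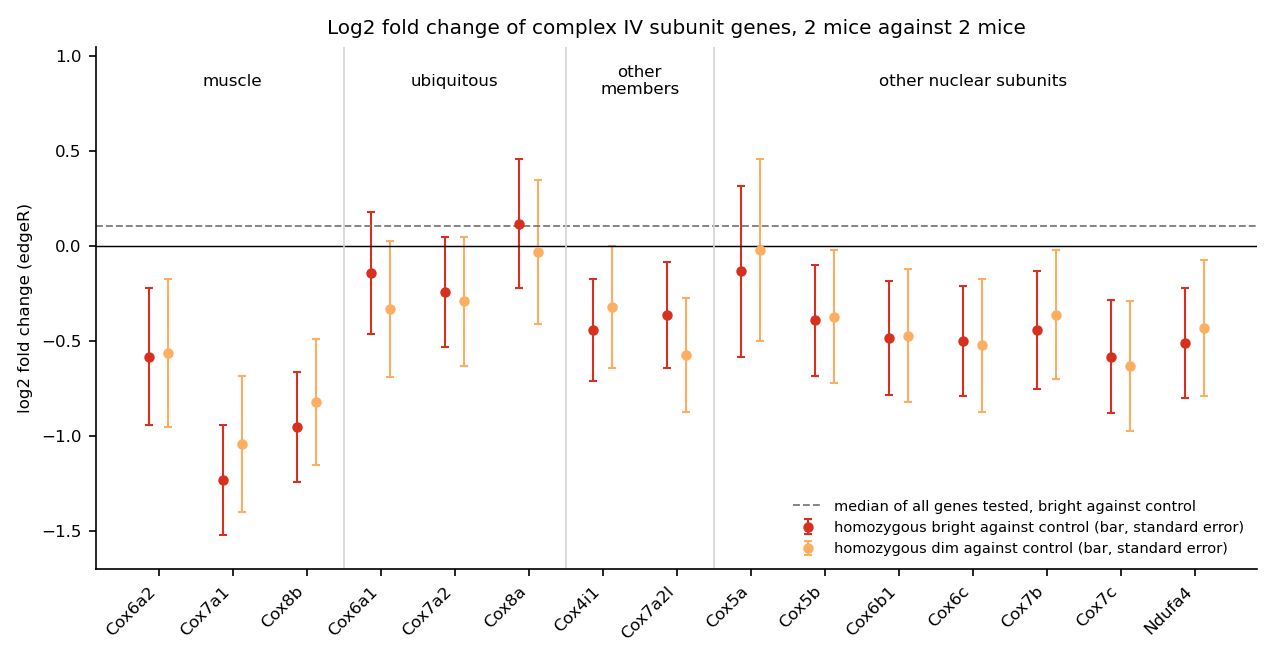
Log2 fold change of complex IV subunit genes (points) with standard errors (bars), homozygous bright (red) and dim (orange) against control CMs, 2 mice against 2. Cox7a1 is lowest at -1.23 and -1.04, the ubiquitous isoforms lie between -0.33 and 0.12, and the other nuclear subunits shown between -0.63 and -0.02. Cox4i2 and Cox6b2, with few counts, are left out. The dashed line is the median of all genes tested in bright against control CMs, 0.11.

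Among the mitochondrially encoded subunits, the catalytic subunit gene mt-Co1 (row COX1; the prostaglandin synthases have rows of their own) had 43039 and 19316 normalised CPM in control Mouse_26 and Mouse_73, 41782 and 46896 in dim and 39298 and 41855 in bright CMs. Control Mouse_73 was lowest, next to Mouse_72 from the same plate (28161 in the cells labelled het_bright and 21586 in those labelled het_dim), and the control, dim and bright groups overlapped. The rows COX2 and COX3 held only 2.36 to 6.58 normalised CPM, far below COX1. The reason was not tested, and these rows are not taken as the levels of those subunits. Of 24 assembly factors 22 were tested and none was called. In bright CMs 15 of the 22 had a value below 0, with a median of -0.47 (14 of 22 and -0.15 when scaled by library size). Among them were *Taco1*, the translational activator of mt-Co1 (-1.57 ± 0.91), *Pet100* (-1.49 ± 0.57), and *Higd1a* (-0.62 ± 0.30), while *Lrpprc*, which stabilises mitochondrial mRNAs, had 0.55 ± 0.44.

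Of 14 regulators of mitochondrial and muscle genes none was called in the edgeR fit of bright and control sums, 7 lay below 0 in bright against control CMs and the median was -0.06 (0.26 when scaled by library size). *Ppargc1a*, a transcriptional coactivator of mitochondrial biogenesis, was the lowest. It had 944 and 1020.4 normalised CPM in control Mouse_26 and Mouse_73, 303 and 325 in dim and 227 and 227 in bright CMs, a log2 fold change of -2.14 ± 0.27 for bright CMs. Its adjusted p was 0.489 by edgeR's quasi-likelihood test. Of the 13 alternatives, 4 called it (DESeq2, no filter, all groups in 1 fit and the batch as a block). *Ppargc1a* was listed with earlier results of these data known, so these values are a description and no test of it. In Mouse_72 it had 446 and 378, between control and homozygous sums. *Chchd2*, a protein that binds complex IV and also acts on its genes, had 1117 and 1049.7 in control and 829.7 and 712 in bright CMs. *Esrra*, *Nrf1* and *Gabpa*, transcription factors of respiratory genes, held at most 31.2 normalised CPM in any sum, and their groups of bright and control mice overlapped.

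Other gene pairs of the heart with a form of immature and one of mature muscle were listed for comparison. *Tnni1*, the slow skeletal troponin I of the fetal heart, held 0.0980% and 0.0226% of the *Tnni3* and *Tnni1* counts in control Mouse_26 and Mouse_73. It held 0.738% and 3.82% in the dim and 1.58% and 5.09% in the bright CMs of Mouse_25 and Mouse_116. All homozygous sums were above both controls, and Mouse_116, which had the lower muscle share, was above Mouse_25 in both classes. *Tnni1* had an adjusted p of 0.663 for bright against control CMs by edgeR. DESeq2, the fit without a filter and the fit with the batch as a block called it. These pairs were also listed with earlier results of these data known, so the calls are a description and no test. The *Slc25a5* share of the adenine nucleotide carriers *Slc25a4* and *Slc25a5* was 8.90% and 4.94% in control Mouse_26 and Mouse_73. It was 8.13% and 11.7% in dim and 8.83% and 13.7% in bright CMs, and both groups overlapped with control. *Myh7* held 0.900% and 0.426% of the *Myh6* and *Myh7* counts in control, 0.893% and 1.44% in dim and 0.953% and 1.70% in bright CMs. The dim sums overlapped with control, and bright Mouse_25 lay only 0.0535 points above control Mouse_26.

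Single cells showed how widely the balance varied within a heart. Of the 234 cells, 214 had at least 1000 detected genes and at least 100 counts of the 6 isoforms, with a median of 3806 such counts. The median muscle share over cells was 75.3% (range 71.3% to 84.0%) in Mouse_26 and 77.8% (67.9% to 85.9%) in Mouse_73. It was 70.6% (57.2% to 78.6%) and 68.1% (56.0% to 76.3%) in the dim CMs of Mouse_25 and Mouse_116, and 68.9% (3.91% to 75.9%) and 64.7% (37.5% to 78.2%) in the bright CMs. The median of each homozygous mouse and class lay below the lowest cell of Mouse_26, but only that of the bright CMs of Mouse_116 lay below the lowest cell of Mouse_73. In each of them some cells overlapped with control cells. Without the fibroblast-type well the lowest bright cell of Mouse_25 had 42.3% and the median was 69.4%.

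*Cox7a1* held fewer reads than *Cox7a2* in none of the 20 and 8 control cells of Mouse_26 and Mouse_73. It did so in 7 of 18 and 19 of 48 dim cells of Mouse_25 and Mouse_116 and in 12 of 19 and 28 of 53 bright cells, among them the fibroblast-type well. Reads are not corrected for transcript length, and per kilobase *Cox7a1* stayed the more abundant form in both bright sums (60.1% and 61.3%). The cells of 1 mouse share their animal, so these numbers of cells describe the hearts and were not tested. Apart from that well, a muscle share under 50% was found in 3 cells, all of them bright: 2 of Mouse_116 (37.5% and 47.5%) and 1 of Mouse_25 (42.3%). Their CM markers summed to 64334, 51714 and 72544 CPM, within the range of 43267 to 160521 CPM over the 213 cells without the fibroblast-type well, and their transgene features to 852, 558 and 959.6 CPM. The cell of Mouse_25 also held 10717 detected genes, the most in its group, and 1178 CPM of fibroblast genes.

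Within the cells of 1 mouse and class, the muscle share and the transgene level (hBAG and BAG-eGFP together, in CPM of the cell) had a Spearman correlation of -0.481 in 18 dim cells of Mouse_25 and -0.0170 in 48 dim cells of Mouse_116. In bright cells it was -0.0464 for Mouse_25 without the fibroblast-type well (-0.167 with it, 19 cells) and -0.218 for Mouse_116 (53 cells). All were negative and most were weak, and both measures come from the same library of a cell, so they are given as a description. In the dim cells of Mouse_25 the muscle share also had -0.476 with the number of detected genes and 0.404 with the CM markers.

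**Figure D4:**
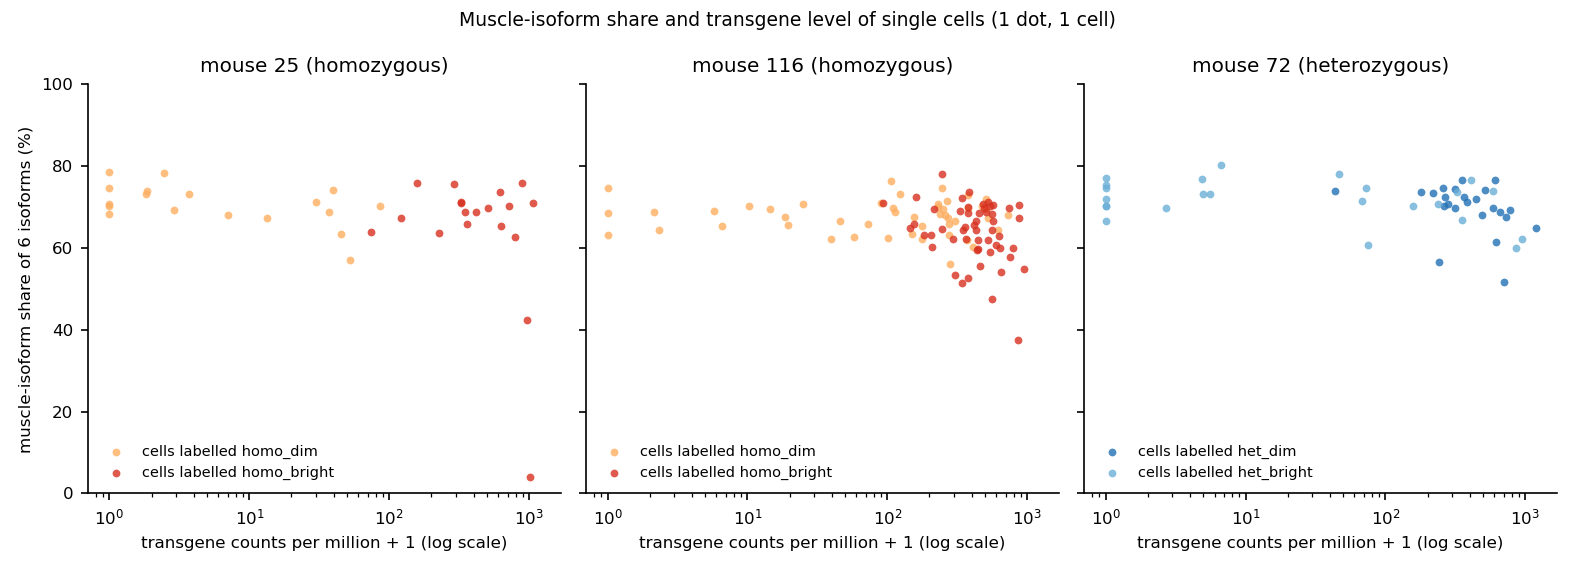
Muscle-isoform share of the 6 paired isoforms (%) against the level of both transgene features (CPM of the cell plus 1, log scale) in single cells of the 3 transgenic mice, coloured by label. Bright homozygous cells lie at the right and dim cells of Mouse_25 at the left, while in Mouse_72 the cells labelled het_dim (median 373) hold more transgene than those labelled het_bright (median 25.6). The cells under 50% are bright cells of Mouse_25 and Mouse_116.

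The genes whose levels over cells were most like the muscle share were named by the mean Spearman correlation over the 8 combinations of mouse and class, among 4620 genes and 214 cells. Highest were *Got2*, the mitochondrial aspartate aminotransferase (0.302), *Cox4i1* (0.299), *Perm1*, a muscle regulator of mitochondrial genes (0.289), *Trdn*, a protein of the calcium release unit (0.284) and *Ndufa3*, a subunit of complex I (0.282). Lowest were *Ftl1*, the ferritin light chain (-0.318), *Hmgb2*, a chromatin protein (-0.316), *Mtus1* (-0.314), *Tnni1* (-0.309) and *Sec11a* (-0.309). These correlations are weak and share their libraries and depth.

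The heterozygous mouse lay between the control and the homozygous mice for the 7a pair, and only narrowly so for the 8 pair. *Cox7a1* held 57.6% of that pair's counts in the cells labelled het_bright (exact interval 57.0% to 58.1%) and 55.9% in those labelled het_dim (55.4% to 56.5%), below both control and above all homozygous sums. The muscle share of all 6 isoforms was 71.3% and 69.7%, and over both classes together 70.5%, against 77.6% in control Mouse_73 from the same plate. The dim sum of homozygous Mouse_25 (70.8%) lay between these classes, and Mouse_25 had 69.7% over both classes together. For *Cox6a2* the shares of 86.2% and 84.7% were within or below the homozygous range. The *Cox8b* shares of 67.8% (67.2% to 68.5%) and 63.0% (62.3% to 63.7%) lay below both control and above all homozygous sums, but narrowly. The first interval overlapped with that of control Mouse_26 (67.8% to 68.8%) and the second with that of dim Mouse_25 (62.0% to 63.2%). *Cox7a1* held under 50% of that pair's reads, not corrected for transcript length, in 1 of 24 and 5 of 24 cells. The Spearman correlation of the muscle share with the transgene level was -0.238 in the cells labelled het_bright and -0.468 in those labelled het_dim (24 cells each). In the cells labelled het_dim the muscle share had a stronger correlation, -0.672, with the total counts of a cell. With 1 mouse no test was made.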

How the data were processed

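Single CMs were picked by hand and sequenced by SMART-seq2, with low-cDNA cells left out before library preparation. The authors aligned reads with STAR to the mouse genome plus human BAG3 and eGFP sequences, and deposited raw counts per gene and cell. The build, annotation and strand setting are not given in the sources used here. Each of the 234 columns was one labelled sample. Counts were summed per mouse and class and tested with edgeR 4.0.16 in R 4.3.3 (filterByExpr, TMM, quasi-likelihood test, Benjamini-Hochberg adjustment over all genes tested, threshold 0.05), with DESeq2 1.42.0 as an alternative. The pipeline was tested on simulated data. Shares were compared over mice with two-sided exact permutation tests in Python 3.11.15, and have 95% Clopper-Pearson intervals. Per-cell values used cells with at least 1000 detected genes and 100 isoform counts. The 15 cells under 1000 genes held 0.169% of counts and stayed in the sums. Bright and dim cells came from the same 2 homozygous mice, so their sums are paired by animal; over 13439 genes the deviations of same-mouse sums from their group means had a Pearson correlation of 0.0824. All 234 index pairs differed, and no cells had identical counts.

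The members and all gene lists were chosen with earlier results of these data known. The named genes were the 9 members and the listed complex IV genes, regulators and isoform partners that the text describes. They also included the 5 genes most and least like the muscle share, among genes detected in at least 50% of all 234 cells. Transcript lengths and shared windows came from GENCODE M21, since the annotation behind the counts is not stated.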

Additional observations from a re-analysis of the deposited data

Results flagged for a closer look

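The difference between bright and dim cells had one sign in the heterozygous Mouse_72 and the opposite sign in both homozygous mice for 8 values: all 4 shares, of which the first is built from the other 3, and the levels of 4 of the 9 members. The difference between the genotypes was not tested, since only 1 heterozygous mouse was sequenced. The share of all genes with such signs is not given here, so the count is not read as a result about the members. Some of these differences are near 0. In bright minus dim percentage points, the muscle share of the 6 isoforms stood at 1.51 in Mouse_72, against -2.11 and -3.38 in Mouse_25 and Mouse_116. The *Cox6a2* share stood at 1.45 against -1.29 and -2.17, the *Cox7a1* share at 1.64 against -5.46 and -1.99, and the *Cox8b* share at 4.87 against -2.64 and -6.68. On the log2 scale of normalised CPM, *Cox8b* had 0.23 in Mouse_72 against -0.18 and -0.05, and *Cox4i1* had 0.05 against -0.17 and -0.05. *Cox6a1* had -0.16 against 0.13 and 0.29, and *Cox7a2l* had -0.46 against 0.23 and 0.20. In Mouse_72 the transgene was also the other way round than the labels, with 105 CPM of hBAG in the cells labelled het_bright and 251 CPM in those labelled het_dim. Whether the labels of these cells were exchanged was not tested.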

How the results depend on the processing

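The muscle share of bright and dim CMs stayed below control in each alternative. By pair, the bright difference was -3.52 points for *Cox6a2*, -16.5 for *Cox7a1* and -17.3 for *Cox8b*. Leaving out 1 mouse gave -8.05 to -12.6 points for bright, -5.94 to -9.24 for dim against control and -2.11 to -3.38 for bright against dim. In the paired fit with the mouse as a replicate block, bright against dim again called 0 genes. The block was run for this comparison, in which the same mice give both classes.

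Counts of called genes moved with the method, and the cause was not tested. In dim against control and bright against dim, no alternative called a member. For bright against control, 2 genes became 92 with DESeq2, 163 without a filter, 5 with all groups in 1 fit, 0 with equal weight for each cell, 10 with the batch as a block and 0 to 41 with 1 mouse left out (41 without bright Mouse_116, 0 without control Mouse_26). For dim against control, 0 became 53 with DESeq2, 58 without a filter, 1 with all groups in 1 fit, 12 with the batch as a block and 3 to 827 with 1 mouse left out. The 827 came without control Mouse_26, where the median log2 fold change of all genes was 0.92. For bright against dim, 0 became 91 with DESeq2, 217 without a filter and 0 to 74 with 1 sum left out (74 without bright Mouse_116, an alternative added after seeing the data). Such a fit lends a lone sum the spread of the other group, and without a whole mouse the paired comparison has no residual degrees of freedom.

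The log2 fold changes of *Cox6a2*, *Cox7a1* and *Cox8b* against control kept their sign in each alternative run. In bright against control, *Cox6a1* was 0.25 and *Cox7a2* 0.10 with equal weight for each cell, *Cox6a1* was 0.04 without control Mouse_26 and 0.10 without bright Mouse_116, and *Cox8a* was -0.23 without control Mouse_73. *Cox4i2* ran from -0.05 without control Mouse_73 to 8.78 without control Mouse_26. In dim against control, *Cox6a1* was 0.03 and *Cox7a2* 0.06 with equal weight for each cell. *Cox8a* was 0.24 with library size, 0.00 without a filter, 0.01 with the batch as a block and -0.38 to 0.46 with 1 mouse left out. *Cox4i2* ranged from -0.39 to 8.37. In bright against dim, *Cox6a2* was 0.01 with library size and 0.04 without the fibroblast-type well. With 1 sum left out, *Cox6a2* ranged from -0.51 to 0.50, *Cox7a1* from -0.51 to 0.24, *Cox8b* from -0.40 to 0.20, *Cox6a1* from -0.11 to 0.58, *Cox7a2* from -0.23 to 0.39, *Cox8a* from -0.05 to 0.37, *Cox4i1* from -0.26 to 0.04 and *Cox4i2* from -0.38 to 1.33. The 2 mice per group and the 4096609 counts of control Mouse_73 limit the precision.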
